A study of Mus musculus with 8 samples.

Results

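NF-kappaB is a family of dimeric transcription factors. The genes described here encode its subunits and the proteins that hold it back or switch it off: Nfkb1, Nfkb2, Rel, Rela, Relb, Nfkbia, Nfkbib, Nfkbie, Nfkbiz and Tnfaip3. The list was set by gene symbol. A gene was measured where the array's annotation had a probe set with that symbol alone, which held for 9 of the 10 genes among 19938 genes tested. Nfkb1 had no such probe set and was not analysed here. Each of the 9 measured genes had 1 probe set.

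The hearts came from 8 male mice of the strain given as CH3, at an age of 8 to 10 weeks and a body weight of 25 to 30 g. In every mouse the left anterior descending (LAD) coronary artery was occluded for 45 minutes and then reperfused for 2 hours. The placebo group (4 mice) received phosphate-buffered saline (PBS) 1 hour before ligation, and the DJ-1 group (4 mice) received recombinant DJ-1 protein at that time. DJ-1 is the product of Park7, known for protecting cells against oxidants. Both groups thus share ischaemia and reperfusion, and no heart without occlusion belongs to either group. RNA was taken from whole myocardial tissue, so a difference in a transcript cannot be assigned to fewer cells of a type or to less RNA per cell.

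In resting cells the IkappaB proteins keep NF-kappaB dimers in the cytoplasm. Signals from tumour necrosis factor, interleukin-1 or Toll-like receptors activate the IkappaB kinase (IKK) complex, IkappaB is degraded, and the dimers enter the nucleus. Several inhibitors are themselves NF-kappaB target genes, so their transcripts form a feedback loop that limits the response. Reperfused heart tissue is a setting where this pathway is known to be active, in heart muscle cells, endothelium and arriving leukocytes. Transcript levels do not measure the location or activity of the proteins.

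The sequence ahead of these genes was read for the site that NF-kappaB is known to bind. The RefSeq promoter table (GRCm38.p6) gives 250 bases before and 50 bases after each start of transcription. Both strands were searched for the kappaB consensus GGGRNWYYCC, which has 10 bases. In it R is A or G, N any base, W A or T, and Y C or T. A site that departs from these letters was not counted. The table held 7 of the 9 measured genes, and Relb and Nfkbiz were not in it. A match was found for 5 of the 7 (Nfkbia, Tnfaip3, Nfkb2, Rel and Nfkbie), against 5.14% of the 27025 genes in the table and 4.51% of its 32851 windows. The windows of Rela and Nfkbib held no match to these letters. The 250 bases before the start are printed 5′ to 3′ on the gene's own strand for these 5 genes, with the matches in capitals, to show where the letters of the consensus occur.
Nfkbia: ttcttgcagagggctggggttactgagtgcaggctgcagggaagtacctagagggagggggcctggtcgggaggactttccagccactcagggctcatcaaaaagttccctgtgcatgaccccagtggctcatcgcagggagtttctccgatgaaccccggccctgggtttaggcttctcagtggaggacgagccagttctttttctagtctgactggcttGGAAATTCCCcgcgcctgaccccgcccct
Tnfaip3: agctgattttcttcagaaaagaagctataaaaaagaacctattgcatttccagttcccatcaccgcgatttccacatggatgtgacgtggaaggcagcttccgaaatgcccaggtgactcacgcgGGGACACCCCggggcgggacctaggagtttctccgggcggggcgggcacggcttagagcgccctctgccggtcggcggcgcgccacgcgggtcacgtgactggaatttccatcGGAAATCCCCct
Nfkb2: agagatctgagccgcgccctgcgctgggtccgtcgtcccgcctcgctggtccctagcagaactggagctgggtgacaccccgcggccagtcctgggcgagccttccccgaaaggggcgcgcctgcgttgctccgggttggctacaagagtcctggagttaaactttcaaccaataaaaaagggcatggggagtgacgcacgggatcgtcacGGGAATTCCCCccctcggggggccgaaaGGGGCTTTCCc
Rel: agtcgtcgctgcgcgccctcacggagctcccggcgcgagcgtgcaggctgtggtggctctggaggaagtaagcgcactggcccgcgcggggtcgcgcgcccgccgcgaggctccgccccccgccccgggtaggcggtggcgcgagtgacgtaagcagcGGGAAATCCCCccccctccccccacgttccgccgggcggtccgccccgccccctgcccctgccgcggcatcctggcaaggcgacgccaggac
Nfkbie: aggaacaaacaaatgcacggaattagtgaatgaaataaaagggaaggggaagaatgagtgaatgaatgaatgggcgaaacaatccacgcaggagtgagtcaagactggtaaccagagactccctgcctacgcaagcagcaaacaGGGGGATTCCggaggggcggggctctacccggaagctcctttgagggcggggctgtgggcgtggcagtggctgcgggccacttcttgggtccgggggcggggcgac
The stretch of Nfkbia is chr12:55492648-55492897 on the minus strand, and its match, GGGAATTTCC on the opposite strand, lies 29 to 20 bases before the start. Tnfaip3 (chr10:19015411-19015660, minus strand) has separate matches at 125 to 116 bases and at 12 to 3 bases before the start. Nfkb2 (chr19:46304487-46304736, plus strand) has overlapping matches between 39 and 29 bases before the start and a further match, GGGGCTTTCC, at 11 to 2 bases. Rel (chr11:23770970-23771219, minus strand) has overlapping matches between 92 and 82 bases, and Nfkbie (chr17:45555450-45555699, plus strand) has GGGGGATTCC at 106 to 97 bases. Nfkb2 has 3 windows in the table and Tnfaip3 has 2, and the first listed is shown for each. The second window of Tnfaip3 held 0 matches. The second window of Nfkb2 held 2 separate sites and the third held 1. At least 2 separate sites in a window, as in the windows shown for Tnfaip3 and Nfkb2, occurred in 0.167% of all windows. A match is a description of the sequence and does not show that the site is bound.

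The values are log2 expression levels made by the robust multi-array average (RMA), in which a difference of 1 is a factor of 2. The small number of arrays, 4 per group, limits the precision. Array medians lay between 5.25 and 5.35 and correlations between arrays between 0.978 and 0.987. Scores on the first principal component (26.3% of the variance) were 19.6 for DJ-1 replicate 3 and 23.5 for DJ-1 replicate 4. This set these arrays apart from the rest, whose scores ran from -15.0 to 5.31. DJ-1 replicates 3 and 4 also had the highest array medians, 5.34 and 5.35, where the rest lay between 5.25 and 5.29. On the second component placebo replicate 4 stood apart at 27.9, and the other arrays ran from -12.5 to 7.18. All 12 measured markers of ventricular heart muscle were above the 95th percentile of the olfactory receptor genes (4.74), which serve as a guide to the background. All 9 members were above that level on all 8 arrays. Values of different genes come from different probes, so the members' levels are not ranked against each other.

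None of the 9 members passed the test between DJ-1 and placebo hearts. In limma's moderated test 0 of the 9 passed an adjusted p of 0.05, where 0% of all genes tested passed. At an unadjusted p under 0.05 the count was also 0 of 9, against 5.99% of all genes. The mean was higher in DJ-1 hearts for 8 of the 9 members, where 52.5% of all genes had a higher mean, and lower for Nfkbie, where 47.5% of all genes had a lower mean. The differences ran from -0.17 to 0.26 with a median of 0.14, against a median of 0.01 over all genes. The groups overlapped for every member (0 of 9 without overlap, against 3.22% of all genes). For every member the 4 placebo hearts spanned a wider range than the difference between the group means. DJ-1 replicate 2 was the highest of the 8 arrays for 6 of the 9 members, against 8.13% of all genes. That array was singled out after its values had been seen.

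**Figure D1:**
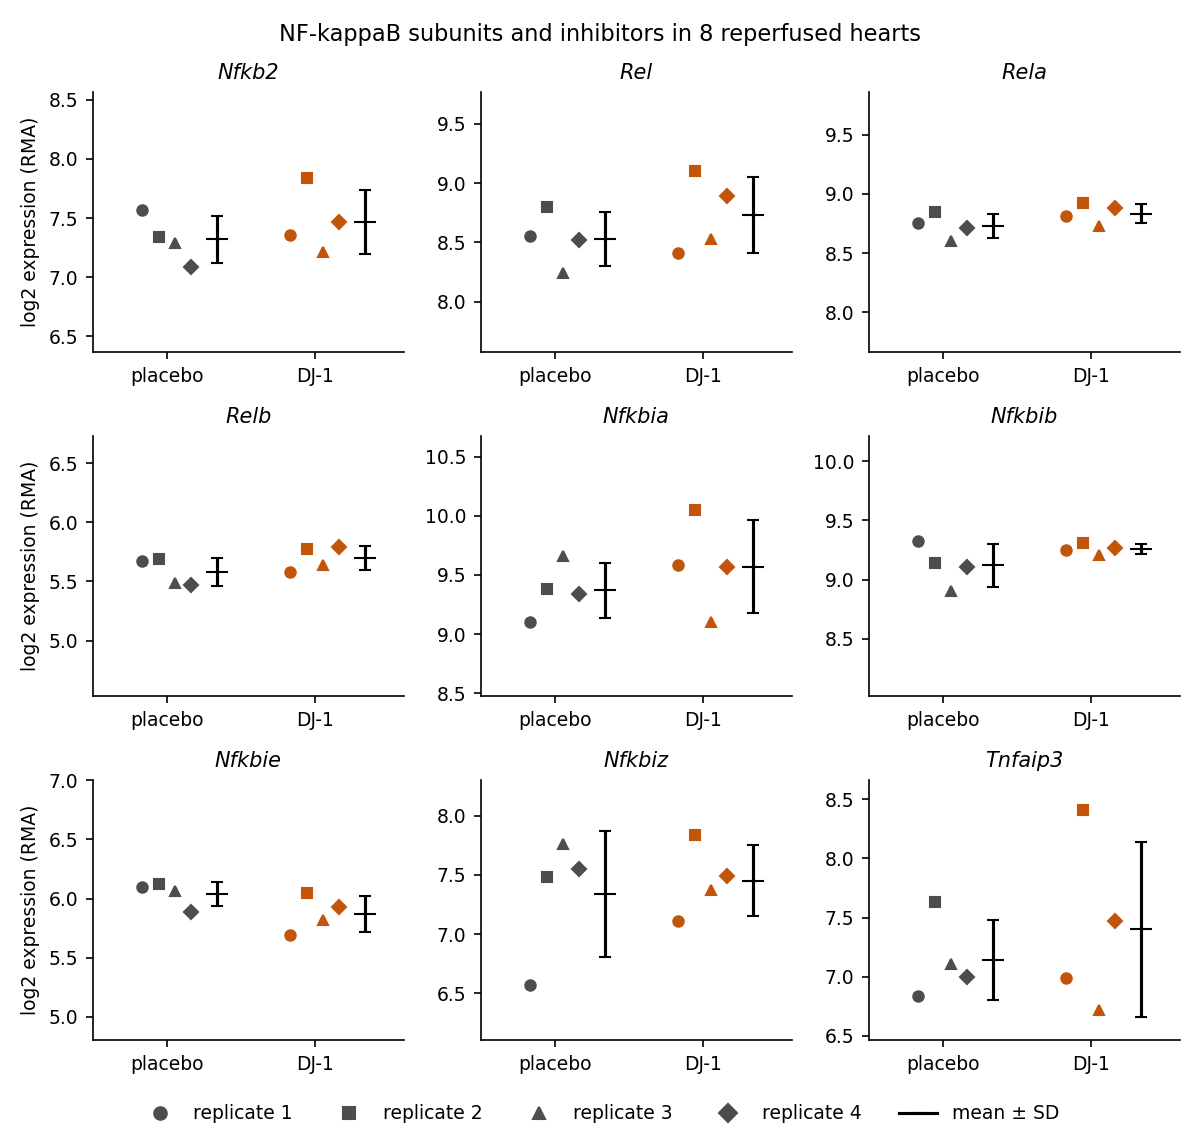
Log2 expression (RMA) of the 9 measured members on each array, with 1 panel per gene; every vertical axis spans the same number of log2 units. Symbols mark the replicate number, and the bar beside each group is the mean ± SD of 4 arrays; the groups overlap in every panel, and Tnfaip3 in DJ-1 replicate 2 (8.41) stands 0.79 above the next array.

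Among the subunits, Rela encodes p65, the partner that carries the transactivation domain of the classical dimer. Its levels, in the order of replicates 1 to 4, were 8.75, 8.85, 8.60 and 8.71 in placebo hearts and 8.81, 8.92, 8.73 and 8.88 in DJ-1 hearts; the same order is used for the genes that follow. All 8 arrays lay within a range of 0.32, and the lowest was a placebo heart and the highest a DJ-1 heart. The difference was 0.10 (SE 0.09, 95% confidence interval -0.10 to 0.31, adjusted p = 0.864, limma). The pooled SD of Rela within groups, 0.09, was at the 11th percentile of all genes, among the steadier transcripts.

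Rel encodes c-Rel, a transactivating subunit best known from lymphocytes and myeloid cells. It was at 8.55, 8.80, 8.24 and 8.52 in placebo hearts and at 8.41, 9.10, 8.53 and 8.89 in DJ-1 hearts. DJ-1 replicates 2 and 4 were above all placebo arrays, while DJ-1 replicate 1 was below 3 of the 4. The difference was 0.20 (SE 0.16, interval -0.16 to 0.56, adjusted p = 0.861, limma), and 0.08 without DJ-1 replicate 2. Rel is also a gene with a kappaB match in the promoter shown above.

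Relb and Nfkb2 serve the alternative branch of the pathway, in which the p100 product of Nfkb2 is processed to p52 and pairs with RelB. Relb was at 5.67, 5.69, 5.49 and 5.47 in placebo hearts and at 5.58, 5.77, 5.64 and 5.79 in DJ-1 hearts. Its range of 0.32 equalled that of Rela, and the difference was 0.11 (SE 0.10, interval -0.10 to 0.33, adjusted p = 0.864, limma). Nfkb2 was at 7.57, 7.34, 7.29 and 7.09 in placebo hearts and at 7.36, 7.84, 7.21 and 7.47 in DJ-1 hearts. Its highest array was DJ-1 replicate 2, and placebo replicate 1 came next. The difference of 0.15 (SE 0.14, interval -0.17 to 0.46, adjusted p = 0.879, limma) was 0.02 without DJ-1 replicate 2. All 4 measured subunits averaged higher in the DJ-1 group, with and without that array, and their median difference was 0.13 with it and 0.08 without it.

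**Figure D2:**
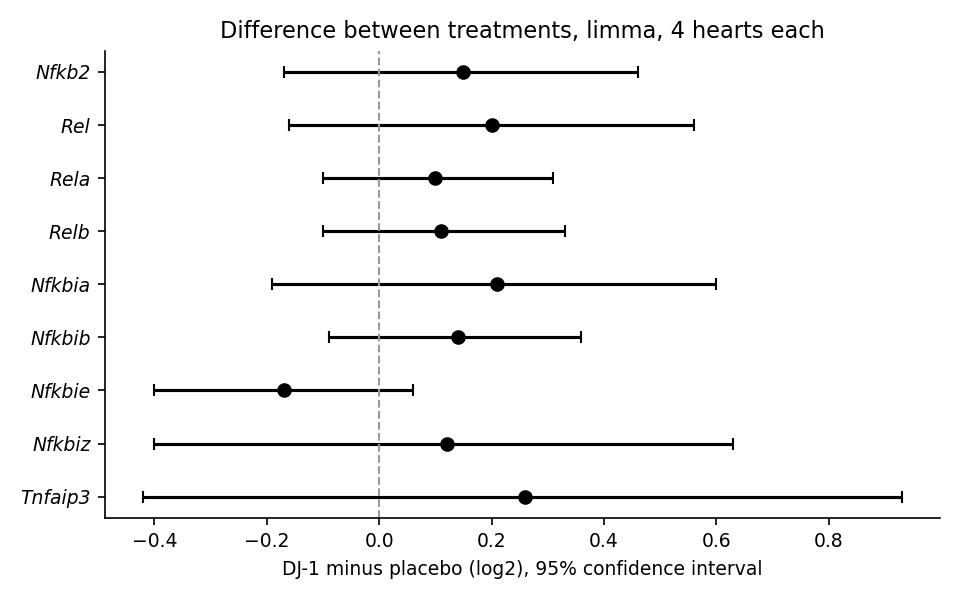
Difference between DJ-1 and placebo hearts for each member on the log2 scale, as points with the 95% confidence interval of the limma fit over 4 hearts per group. All 9 intervals include 0; the widest is that of Tnfaip3, from -0.42 to 0.93.

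Among the inhibitors, Nfkbia encodes IkappaB-alpha, the inhibitor that is degraded and rapidly made again after each wave of NF-kappaB activity. It was at 9.10, 9.38, 9.66 and 9.34 in placebo hearts and at 9.58, 10.05, 9.10 and 9.57 in DJ-1 hearts. The lowest values of both groups were equal at this precision, and DJ-1 replicate 2 exceeded every other array by 0.39 or more. The difference was 0.21 (SE 0.18, interval -0.19 to 0.60, adjusted p = 0.864, limma). Leaving out DJ-1 replicate 2 gave 0.05, and leaving out DJ-1 replicate 3 gave 0.36. With DJ-1 replicates 3 and 4 both removed it was 0.44, with an adjusted p of 0.987 in the limma fit. The unadjusted p of Nfkbia was 0.0433 without DJ-1 replicate 3 and 0.0326 with both removed (limma), so under these settings 1 of the 9 members had an unadjusted p under 0.05. In the same 2 fits, 934 and 911 of all 19938 genes had an unadjusted p under 0.05.

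Nfkbib encodes IkappaB-beta, which is resynthesised more slowly. It was at 9.33, 9.14, 8.90 and 9.11 in placebo hearts and at 9.25, 9.31, 9.21 and 9.27 in DJ-1 hearts. The DJ-1 hearts lay close together (SD 0.04, n = 4, against 0.18 in placebo hearts, n = 4), inside the placebo range. The difference was 0.14 (SE 0.10, interval -0.09 to 0.36, adjusted p = 0.846, limma), and 0.07 without placebo replicate 3.

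Nfkbie encodes IkappaB-epsilon, an inhibitor that is itself induced by NF-kappaB. It was at 6.10, 6.12, 6.06 and 5.89 in placebo hearts and at 5.69, 6.05, 5.82 and 5.93 in DJ-1 hearts. Of the 9 members it alone averaged lower in the DJ-1 group, and DJ-1 replicates 2 and 4 lay above placebo replicate 4. Its difference of -0.17 (SE 0.10, interval -0.40 to 0.06) had the smallest unadjusted p of the 9 (0.127, adjusted p = 0.824, limma). It ran from -0.23 to -0.11 when each array was left out.

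Nfkbiz encodes IkappaB-zeta, a nuclear IkappaB-like protein that is induced by interleukin-1 and Toll-like receptor signals and assists transcription of secondary response genes. It was at 6.57, 7.48, 7.76 and 7.55 in placebo hearts and at 7.11, 7.84, 7.37 and 7.49 in DJ-1 hearts. Placebo replicate 1 was the lowest array by a wide margin, and the other 3 placebo hearts lay within the DJ-1 range. The difference was 0.12 (SE 0.23, interval -0.40 to 0.63, adjusted p = 0.947, limma). Its sign turned without placebo replicate 1 (-0.14) and without DJ-1 replicate 2 (-0.01). The pooled SD of 0.43 was at the 98.1st percentile of all genes.

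Tnfaip3 encodes A20, the ubiquitin-editing enzyme that shuts off signalling upstream of IKK and is a textbook NF-kappaB target. It was at 6.84, 7.63, 7.11 and 7.00 in placebo hearts and at 6.99, 8.41, 6.72 and 7.47 in DJ-1 hearts. The highest and the lowest of the 8 arrays were both DJ-1 hearts, 1.69 apart, a factor of 3.23. Placebo replicate 2 was the highest of its group. The difference was 0.26 (SE 0.31, interval -0.42 to 0.93, adjusted p = 0.9, limma) and -0.08 without DJ-1 replicate 2. The pooled SD within groups was 0.58, at the 99.3rd percentile of all genes, against a median of 0.17 over all genes and of 0.23 over the 9 members.

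**Figure D3:**
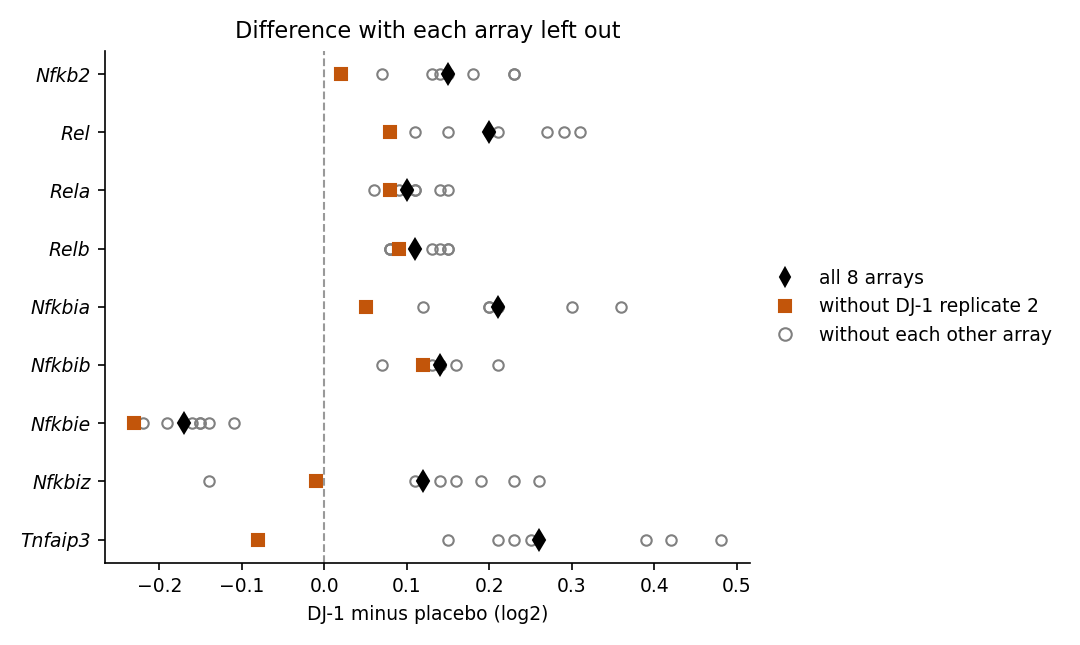
Difference between DJ-1 and placebo hearts (log2) for each member with all 8 arrays (diamonds), without DJ-1 replicate 2 (squares) and without each other array (circles). Without DJ-1 replicate 2 the difference is -0.08 for Tnfaip3 and -0.01 for Nfkbiz, and 6 of the 9 members keep a higher DJ-1 mean.

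The deviation of DJ-1 replicate 2 was uneven among the members. Against the mean of the other 3 DJ-1 hearts it was higher by 1.35 for Tnfaip3 (a factor of 2.55), 0.63 for Nfkbia (1.55), 0.52 for Nfkbiz (1.43), 0.49 for Rel (1.41) and 0.49 for Nfkb2 (1.40). These 5 deviations were at or above the 98.3rd percentile of the same quantity over all genes. For Nfkbie it was 0.23, at the 90th percentile. Rela (0.11), Relb (0.10) and Nfkbib (0.06) lay between the 67.9th and the 76.4th percentile. Of the 7 members with a promoter in the table, the 5 that hold a kappaB match were at the 90th percentile or above. Rela and Nfkbib, with no match, were below it. The array and this cut were chosen after the values had been seen. The split by percentile was not made over all genes, where another measure, the highest of the 8 arrays, was read. Over all measured genes in the promoter table, DJ-1 replicate 2 was the highest array for 9.81% with a match and 8.08% without. By that measure the members did not split by match. DJ-1 replicate 2 was the highest array for Rela, with no match, while placebo replicate 2 was the highest for Nfkbie, with a match. DJ-1 replicate 2 was also the highest for 11 of the 17 neutrophil markers, of which 0 held a match. These values describe 1 heart, and a relation to the matches was not tested.

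The same heart was high in transcripts around the pathway. Deviations from the mean of the 8 arrays, averaged over the 9 members, were -0.14, 0.08, -0.07 and -0.12 in the placebo hearts. In the DJ-1 hearts they were -0.11, 0.39, -0.16 and 0.11. Averaged over 29 textbook NF-kappaB targets they were 0.00, 0.25, -0.23 and -0.43 in the placebo group, against 0.09, 0.68, -0.47 and 0.11 in the DJ-1 group. The mean over all genes lay between -0.02 and 0.03 on every array. DJ-1 replicate 2 was the highest array for 18 of the 29 targets, against 8.13% of all genes.

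Markers of other cell types were read beside the members, and 0 of them passed an adjusted p of 0.05 (limma). Neutrophils enter reperfused heart muscle early. All 17 of their marker genes were measured and all 17 averaged higher in the DJ-1 group, with a median difference of 0.74; without DJ-1 replicate 2 it was 16 of 17 and 0.36. Of the 17, 15 were above the olfactory guide level; Ltf and Mpo were below it. Their mean deviations were -0.17, 0.72, -0.54 and -1.36 in the placebo group, against 0.78, 1.04, -0.09 and -0.37 in the DJ-1 group. DJ-1 replicate 2 was the highest in this measure too, and DJ-1 replicate 1, at 0.78, came next while its members' mean was -0.11. Placebo replicate 4, the lowest in neutrophil markers, was at -0.12 in the members. Monocyte and macrophage markers (13 of 14 measured, 12 above the guide level) ranged from -0.23 to 0.19 in placebo and from -0.13 to 0.25 in DJ-1 hearts, with DJ-1 replicate 2 at 0.07. Lymphocyte markers (11 of 12 measured, 8 above the guide level) ranged from -0.11 to 0.16 and from -0.13 to 0.09. Endothelial markers (10 of 10 measured, 10 above the guide level) ranged from -0.14 to 0.12 and from -0.14 to 0.06. DJ-1 replicate 2 was at -0.04 in the endothelial markers. Of these, 4 averaged higher and 6 lower in the DJ-1 group (median -0.06). Of the fibroblast markers, 10 of 11 averaged lower in the DJ-1 group (median -0.10), as did 8 of 9 smooth muscle and pericyte markers (median -0.16) and 10 of 12 ventricular heart muscle markers (median -0.03). All 4 measured erythroid markers averaged higher (median 0.34). Over all genes the median was 0.01, and the DJ-1 mean was higher for 52.5% and lower for 47.5%. The part of these cells in the members' levels was not tested.

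**Figure D4:**
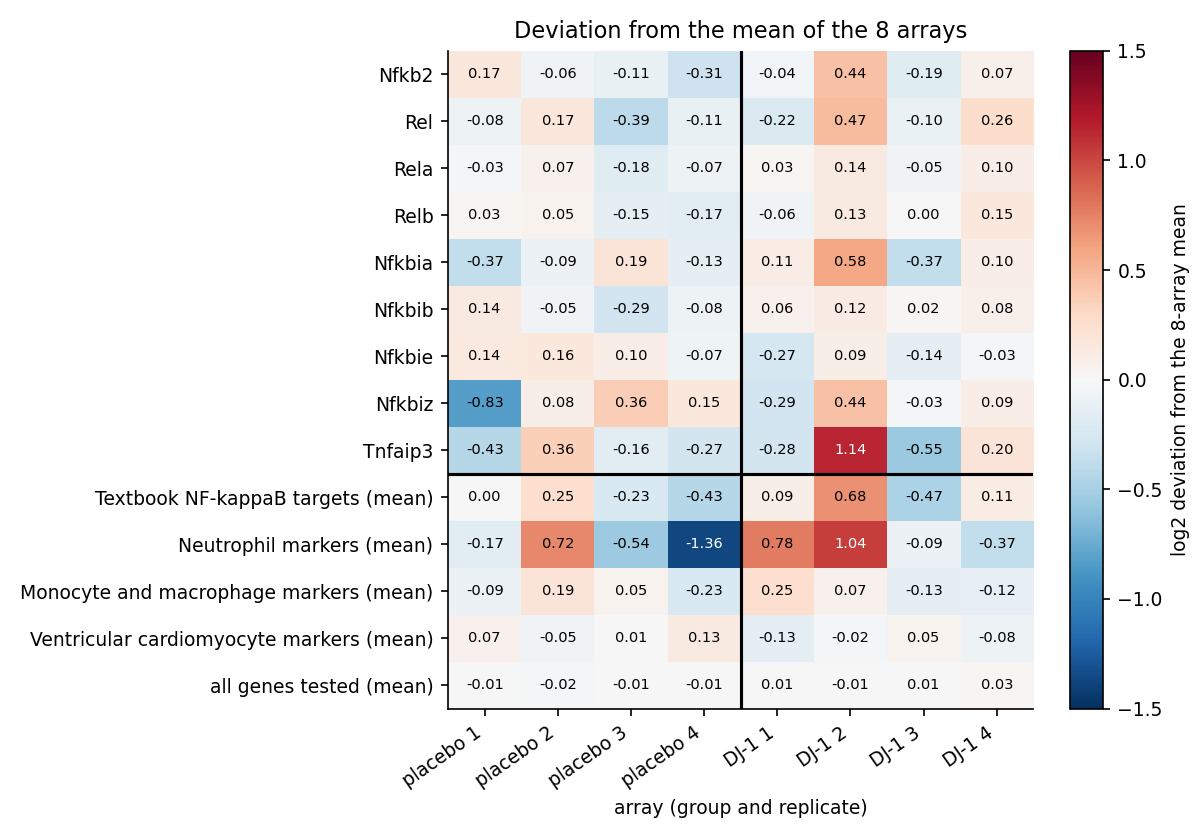
Deviation of each array (columns) from the mean of the 8 arrays on the log2 scale, for the 9 members (upper rows) and for the mean of 4 gene lists and of all genes (lower rows); red is above and blue below the mean. DJ-1 replicate 2 reaches 0.68 in the NF-kappaB targets and 1.04 in the neutrophil markers, while the mean over all genes stays between -0.02 and 0.03.

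Over the 36 pairs of members, the correlation across the 8 arrays was above 0 for 31 pairs, with a median Pearson r of 0.50, and above 0 for 22 pairs with a median of 0.27 without DJ-1 replicate 2. The highest values were those of Rel with Rela and Relb. Rel and Rela had r = 0.89 (exact permutation p = 0.00337, adjusted over the 36 pairs 0.0817) and Spearman rho = 0.86 (exact permutation p = 0.0107, adjusted 0.0964), with r = 0.78 without the 2 arrays farthest from the median of Rel. Rel and Relb had r = 0.85 (exact permutation p = 0.00875, adjusted 0.0817) and rho = 0.90 (exact permutation p = 0.00456, adjusted 0.0964), with r = 0.70 without those arrays. No pair passed the adjustment (0 by either coefficient), and 9 had an unadjusted exact p under 0.05 for r. No count over pairs of other genes stands beside these counts, so they are not read as particular to the members. Nfkbia and Tnfaip3 had r = 0.81 (exact permutation p = 0.015, adjusted 0.108) and rho = 0.69 (exact permutation p = 0.0694, adjusted 0.266). Their r was 0.42 without DJ-1 replicate 2 and placebo replicate 1, so the size of this r depends on those arrays. Rel and Tnfaip3 had r = 0.83 and rho = 0.55, with r = 0.49 without DJ-1 replicates 2 and 4. Rela and Relb had r = 0.84 and rho = 0.88, with r = 0.74 without placebo replicate 3 and DJ-1 replicate 2.

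The genes most like 5 of the members were sought among 9639 other named genes above the median level, by Pearson r over the 8 arrays after each group's mean was removed. Each r is among the highest of all these genes, so its size is set by the choice and is given with no test. Tnfaip3 was most like Cxcl9, a chemokine gene (0.98), Itpkc, an inositol trisphosphate kinase gene (0.98), and Pde4b, a cyclic AMP phosphodiesterase gene (0.96). Nfkb2 was most like Map2k3os (0.98), Rhbdf2, which controls the release of tumour necrosis factor (0.97), and Il1rap, the interleukin-1 receptor accessory chain (0.94). Relb was most like Inip (0.95), Plagl2 (0.93) and the syndecan gene Sdc4 (0.92). Nfkbia was most like Klhl13 (0.99), Armc10 (0.94) and Dhodh (0.93), and Nfkbiz was most like Sh3bgrl3 (0.96), Hnrnpa0 (0.96) and Cd93 (0.95). When DJ-1 replicate 2 was left out after this centring, these 15 values lay between 0.89 and 0.99. The removed group means still came from all 8 arrays, so that array was not fully left out. With the group means kept in, r over the 8 arrays was lower for some of them, such as 0.41 for Nfkbia with Armc10.

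The genes above the members in the pathway did not pass either. Of the IKK complexes and the kinases above them, 12 of 13 were measured and 0 passed in either direction; 4 averaged higher and 8 lower in the DJ-1 group, and the median difference was -0.04. The catalytic subunit gene Ikbkb differed by 0.05 (SE 0.10) and the scaffold gene Ikbkg (NEMO) by -0.05 (SE 0.08). The smallest p values were those of Ikbke, the inducible IKK-related kinase, at 0.22 (SE 0.12), Tab1, a partner of the TAK1 kinase, at -0.16 (SE 0.10), and Akt1 at -0.13 (SE 0.09). These 3 had adjusted p values between 0.824 and 0.832 in the limma fit. Receptors that signal to NF-kappaB (11 of 12 measured, 0 passed) had a higher mean for 9 and a lower mean for 2, with a median of 0.12, and 0.05 without DJ-1 replicate 2. The TWEAK receptor gene Tnfrsf12a differed by 0.44 (SE 0.21), the lipopolysaccharide co-receptor gene Cd14 by 0.63 (SE 0.35) and the lymphotoxin-beta receptor gene Ltbr by -0.16 (SE 0.09). Their adjusted p was 0.824 each (limma). Cd14 had its highest value, 8.62, in DJ-1 replicate 2 and its next, 7.90, in DJ-1 replicate 1.

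Of receptor adaptors and ubiquitin ligases, 21 of 25 were measured and 0 passed, with 13 higher, 8 lower and a median of 0.04. Traf2, an adaptor of tumour necrosis factor receptors, was at 6.49, 6.58, 6.67 and 6.33 in the placebo group, against 6.70, 6.88, 6.76 and 6.91 in the DJ-1 group. Its groups did not overlap, which held in this direction for 1 of these 21 genes and for 1.54% of all genes. The difference was 0.30 (SE 0.10, adjusted p = 0.824, limma). The interleukin-1 receptor-associated kinase genes Irak2 and Irak3 differed by 0.22 (SE 0.11) and 0.38 (SE 0.19). The brake-like Irak3 had its highest value, 8.55, in DJ-1 replicate 2.

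Other brakes and IkappaB-like genes (20 of 20 measured, 0 passed) had a higher mean for 13 and a lower mean for 7, with a median of 0.07. Without DJ-1 replicate 2 the counts were 10 and 10 and the median 0.00. Zc3h12a, which encodes the RNA-degrading brake Regnase-1, differed by 0.34 (SE 0.14), Nfkbil1 by 0.20 (SE 0.11) and the deubiquitinase gene Cyld by -0.19 (SE 0.14), with adjusted p values between 0.824 and 0.842 (limma). Of the textbook targets, 29 of 30 were measured and 0 passed. The mean was higher for 26 and lower for 3, where 52.5% of all genes had a higher mean, and the median was 0.14. Of the 29, 26 were above the olfactory guide level. Without DJ-1 replicate 2 the counts were 19 and 10 and the median 0.06. Leaving out placebo replicate 4 gave a median of 0.08, and leaving out placebo replicate 2 gave 0.26. It was 0.32 when DJ-1 replicate 3 was removed, and 0.45 when replicate 4 of that group was removed as well. Nos2, the inducible nitric oxide synthase gene, was among the 3 that averaged lower. Its levels were 5.88, 5.62, 5.58 and 6.12 in the placebo group, against 5.38, 5.48, 5.20 and 5.35 in the DJ-1 group. The groups did not overlap, as held in this direction for 1 of the 29 targets and 1.68% of all genes, and the difference was -0.45 (SE 0.13, adjusted p = 0.824, limma). The chemokine gene Cxcl10 differed by 0.58 (SE 0.31, adjusted p = 0.824, limma). Its highest value, 7.01, was in DJ-1 replicate 2 and its lowest, 5.03, in DJ-1 replicate 3. The growth factor gene Csf2 had group means of 4.10 and 4.52, below the olfactory guide level of 4.74, so its difference is not read.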

How the data were processed

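The deposited table holds log2 values of 35556 probe sets on 8 arrays (Affymetrix whole-transcript chemistry, per the labels' protocols). The authors made them with RMA, per the submitters' processing notes; for its software and version, the sources used here give nothing. No further normalization was applied. Gene symbols came from the platform annotation: 21789 probe sets had 1 symbol, 1621 several and 12146 none. The probe set of highest mean was taken per gene, which gave 19938 genes.

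Moderated, two-sided tests from limma 3.58.1 (lmFit, eBayes; R 4.3.3) compared the groups without a covariate. All 19938 genes entered the Benjamini-Hochberg adjustment, and the fit was tested on simulated data. Correlations used all 40320 orders of the 8 arrays (Python 3.11.15, NumPy 2.4.6, SciPy 1.17.1). The members, lists and tests were chosen with earlier results of these data known. All members were named; of each pathway list, the 3 genes of smallest p were named, and Ikbkb and Ikbkg were added for their role after their values were seen. List entries were matched by symbol or through RefSeq gene identifiers. Sample titles name mice and number them from 1 to 4 in each group, which was read as separate animals; p-values measure the spread between these samples. No hybridisation batch was examined. Alternatives were the scaling, a filter on low values, the probe sets, the variance model, a replicate block and arrays left out.

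The replicate numbers are shared by both groups. Deviations of same-numbered arrays correlated at 0.00, 0.17, 0.18 and 0.01, over 0.1 for 2 of the 4 numbers, so the samples were not taken as paired.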

Additional observations from a re-analysis of the deposited data

How the results depend on the processing

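With 4 arrays per group, an exact permutation test cannot give a p below 0.0286, and the members' own permutation p values ran from 0.114 to 0.771. The count of members past adjusted p 0.05 was 0 under every alternative run, and the smallest adjusted p of any member was 0.682, for Nfkbie without DJ-1 replicate 2. The filter, the probe sets, the variance models, the block and the permutation test leave a member's difference as it is. Of 108 member differences under the 12 alternatives that can move it, 105 kept their sign and 3 reversed: Nfkbiz without placebo replicate 1 (-0.14) and without DJ-1 replicate 2 (-0.01), and Tnfaip3 without DJ-1 replicate 2 (-0.08). With each array left out, the difference of Nfkbiz ran from -0.14 to 0.26 and that of Tnfaip3 from -0.08 to 0.48. The count over all genes was 0 except without DJ-1 replicate 3, where it was 1 (Pramel27, adjusted p = 0.044, limma). The range with each array left out was thus 0 to 1. Pramel27 had a mean level of 4.23, below the olfactory guide level of 4.74, so its difference is not read. At an unadjusted p under 0.05 the fit without DJ-1 replicate 3 had 934 genes. The count of members with a higher DJ-1 mean, recomputed after the data had been seen, was 8 under all alternatives except without placebo replicate 1 (7) and without DJ-1 replicate 2 (6). Quantile normalization, median centring and cyclic loess changed no member's sign, and the median over all genes stayed within 0.01 of 0. Over their alternatives the list medians ran from -0.07 to -0.01 for the IKK list, 0.00 to 0.05 for adaptors, 0.05 to 0.21 for receptors, 0.00 to 0.10 for other brakes and 0.06 to 0.45 for textbook targets.

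With the replicate number as a block, 0 members and 0 genes passed in the limma fit, with 1302 genes at an unadjusted p under 0.05. In that fit the differences of Tnfaip3 and Rel were 0.26 (adjusted p = 0.812) and 0.20 (adjusted p = 0.782). The block lowered the SE of Tnfaip3 from 0.31 to 0.17, of Nfkbiz from 0.23 to 0.15 and of Rel from 0.16 to 0.12. For the other members the SE was equal or higher with the block at this precision. The same-numbered arrays did not all deviate together, and 1 of the 8 samples correlated best with its own number.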

Other observations

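Over all measured genes with an entry in the promoter table, 897 held a kappaB match in a window and 14717 did not. The mean was higher in DJ-1 hearts for 54.4% of those with a match and for 52.2% of those without, with median differences of 0.02 and 0.01 on the log2 scale, and 0 genes of either kind passed an adjusted p of 0.05 (limma). DJ-1 replicate 2 was the highest of the 8 arrays for 9.81% of the genes with a match and for 8.08% of those without. By list, a match was present in 10 of the 19 textbook NF-kappaB targets that the table holds (52.6%), among them Cxcl1, Cxcl2, Il6, Sod2 and Irf1, in 6 of 17 other brakes (35.3%), among them Bcl3, Cyld and Nfkbid, in 2 of 9 IKK-related genes (22.2%), in 1 of 8 receptors (12.5%) and in 1 of 17 adaptors (5.88%). Among the marker lists it was present in 2 of 7 endothelial (28.6%), 2 of 9 monocyte and macrophage (22.2%) and 1 of 3 erythroid genes (33.3%), and in 0 of 17 neutrophil, 0 of 7 lymphocyte, 0 of 11 heart muscle, 0 of 7 fibroblast and 0 of 6 smooth muscle and pericyte genes. These shares describe the sequences and were not tested.

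Some further genes are given by value. Bcl3, an IkappaB-like coactivator of p50 and p52, was at 8.43, 8.22, 7.14 and 7.03 in the placebo group, against 8.42, 8.97, 7.22 and 8.22 in the DJ-1 group (replicates 1 to 4 in order). The interleukin-6 gene Il6 was at 8.07, 8.53, 7.23 and 6.79 in the placebo group, against 8.42, 9.48, 6.52 and 8.34 in the DJ-1 group. Neither gene separated the groups. Nfkbiz and the RNA-decay gene Zfp36 shared their lowest array, placebo replicate 1, at 6.57 and 8.85. Bcl3, Il6 and Zfp36 were chosen for this paragraph after their values had been seen.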
